A study of Mus musculus with 14 samples.

Results

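The 10 genes described here encode subunits of the AMPA and NMDA glutamate receptors: Gria1, Gria2, Gria3 and Gria4 for AMPA receptors, and Grin1, Grin2a, Grin2b, Grin2c, Grin2d and Grin3a for NMDA receptors. They were picked by gene symbol as subunits of these receptor families, with earlier results of these data known, and all 10 were found among the 16703 genes of the table. The libraries were made from spinal cords of mice with experimental autoimmune encephalomyelitis (EAE), a model of multiple sclerosis in which immunization with a myelin peptide sets off inflammation and demyelination. Dihydrotestosterone (DHT), an androgen that is not converted to estrogen, was compared with its vehicle within each sex. All were C57Bl/6 mice with EAE that lacked gonads: the females had been ovariectomized and the males castrated, and they were 9 to 10 weeks old at acclimatization, which preceded the immunization. DHT was given through the nose at 0.04 mg per day for 8 days from the first neurological symptoms. The 4 groups were female vehicle (n = 4 libraries), female DHT (n = 3), male vehicle (n = 4) and male DHT (n = 3), where the methods of the study name 4 animals per group. Libraries are called here by their group and the number in their column name. Female and male libraries came from separate datasets, so sex and dataset cannot be told apart.

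AMPA receptors are cation channels opened by glutamate that carry most fast excitatory transmission in the spinal cord, and their calcium permeability depends on whether they hold the Gria2 product, GluA2, after editing of its RNA. NMDA receptors need both glutamate and a co-agonist, glycine or D-serine, and are blocked by magnesium until the membrane is depolarized. Every NMDA receptor holds the Grin1 product, GluN1, joined by GluN2 subunits, which bind glutamate, or by GluN3 subunits, which bind glycine. In white matter, oligodendrocyte lineage cells and some astrocytes also carry these receptors, and excess glutamate acting on them is a known route of damage to neurons and oligodendrocytes in inflammation.

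Values are log2 CPM, that is the log2 of read counts scaled to library size, after the housekeeping gene normalization of the authors, and a gene is called when its adjusted p in limma is under 0.05 over all 16703 genes. Depth after normalization was 29311155 to 35761972 per library, and a gene without reads would stand at 0.0631 CPM, far below each member. Xist, which is transcribed from the inactive X chromosome, was at 7.41 log2 CPM in male DHT 3, as in female libraries, and at 3.04 in female vehicle 3, the lowest value of the female libraries. The deposited values also lack 1 direction of variation across libraries, to which male DHT 3 gives 62.8% of the squared weight and female vehicle 3 gives 23.7%. Neuron markers were present in every library, and none of the 12 was at 0. Their summed level was 5462 to 7164 CPM in female vehicle, 7474 to 9529 CPM in female DHT, 5338 to 5885 CPM in male vehicle and 6972 to 7456 CPM in male DHT. The 8 microglia and macrophage markers had the opposite order, with sums of 879.7 to 1863 CPM in female vehicle against 190.7 to 851.0 CPM in female DHT, and 1811 to 2581 CPM in male vehicle against 695.5 to 1146 CPM in male DHT. In these bulk samples a change in the number of cells of a type cannot be told apart from a change in RNA per cell.

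Promoter sequence was at hand in RefSeq (GRCm38.p6) for 5 of the 10 members: Gria2, Gria4, Grin1, Grin2c and Grin2d. The 250 bases that precede the annotated start are shown for Gria4, Grin1 and Grin2c, because these genes gave the most different pictures across the 4 groups: Gria4 rose in both sexes, Grin1 passed the test in females and not in males, and Grin2c was the member that varied most between libraries. Capitals mark the GC box GGGCGG and the cyclic AMP response half-site TGACG, each searched on both strands, so that TGACG on the opposite strand appears as CGTCA. All 3 genes lie on the minus strand, and the sequences run 5′ to 3′ toward the start, at chr9:4796235-4796484 for Gria4, chr2:25319188-25319437 for Grin1 and chr11:115267244-115267493 for Grin2c.
Gria4: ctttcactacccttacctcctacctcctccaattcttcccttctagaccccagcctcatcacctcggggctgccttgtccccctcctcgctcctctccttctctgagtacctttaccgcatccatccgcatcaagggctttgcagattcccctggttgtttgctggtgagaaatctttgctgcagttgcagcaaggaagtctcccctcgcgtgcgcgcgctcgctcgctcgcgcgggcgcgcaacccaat
Grin1: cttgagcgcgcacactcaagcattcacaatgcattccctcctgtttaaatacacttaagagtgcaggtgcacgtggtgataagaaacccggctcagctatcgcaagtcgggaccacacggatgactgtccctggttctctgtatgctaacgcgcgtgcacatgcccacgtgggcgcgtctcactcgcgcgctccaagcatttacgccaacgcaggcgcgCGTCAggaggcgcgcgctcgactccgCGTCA
Grin2c: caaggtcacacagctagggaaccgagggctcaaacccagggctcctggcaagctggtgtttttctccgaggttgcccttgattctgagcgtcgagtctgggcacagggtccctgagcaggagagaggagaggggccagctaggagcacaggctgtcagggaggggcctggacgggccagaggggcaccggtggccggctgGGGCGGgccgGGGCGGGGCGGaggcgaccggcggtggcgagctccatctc
The Grin2c window held 3 GC boxes, a motif found in 32.7% of the 32851 RefSeq promoter windows, and the Grin1 window held 2 cyclic AMP response half-sites, found in 17.8% of windows. Neither the full androgen receptor element (GNACA and TGTNC with any 3 bases between them, both strands), present in 0.387% of windows, nor its half-site AGAACA (both strands), present in 16.1%, occurred in the windows of the 5 members. GC content was 58.8% in the Gria4 and Grin1 windows and 68.8% in that of Grin2c, against a median of 52.4% over all windows.

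Under DHT, RNA of all 10 subunits rose in females, and that of 4 subunits (Gria2, Gria3, Gria4 and Grin2a) rose in males. The rises in females ran from 1.26-fold for Grin2d to 1.87-fold for Grin2c, and the 4 in males from 1.36-fold for Gria3 to 1.53-fold for Gria4. Over the whole table, 19.8% of genes rose with DHT in females and 12.1% in males, and 6.36% rose in both, as the 4 subunits did. The median log2 fold change of the 10 subunits was 0.66 in females and 0.39 in males, where the medians over all genes were −0.02 and −0.00. Every DHT library lay above every vehicle library for 9 of 10 subunits in females and for 7 of 10 in males, while this held for 19.0% and 18.5% of all genes. The plot of each subunit by library shows these values.

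**Figure D1:**
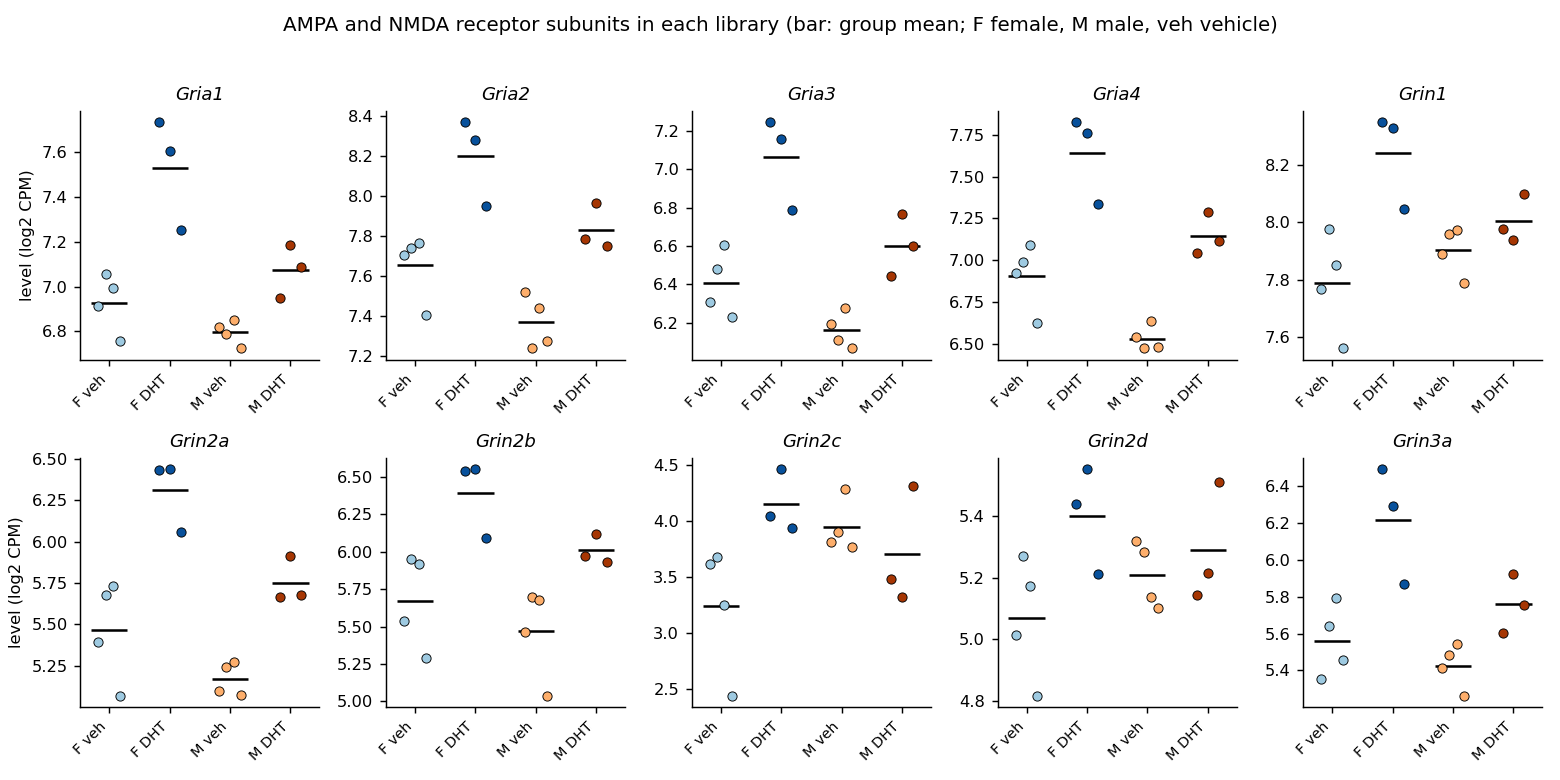
Level of each of the 10 subunits in log2 CPM (y axis, scaled to each gene) in the 14 libraries by group (x axis; F female, M male, veh vehicle), with 1 point per library and a bar at the group mean. The DHT points of females lie above all vehicle points except for Grin2d, and those of males do so for 7 subunits but not for Grin1, Grin2c and Grin2d.

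Gria4 (chr9:4417896-4796234, minus strand), the AMPA subunit linked in the adult to rapidly gated receptors and prominent in spinal cord, had the smallest p of the AMPA group in both sexes. It was at 6.93, 6.99, 7.09 and 6.62 log2 CPM in female vehicle and at 7.83, 7.76 and 7.34 in female DHT. In males it was at 6.54, 6.47, 6.64 and 6.48 with vehicle and at 7.04, 7.29 and 7.11 with DHT. The groups did not overlap in either sex. The log2 fold change was 0.74 (SE 0.13, limma adjusted p = 0.00478) in females and 0.62 (SE 0.13, limma adjusted p = 0.00807) in males. In males this was the 1 call among the 4 that remained without male DHT 3, without male vehicle 4, and when the missing direction entered the fit as a covariate.

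Gria2 (chr3:80681450-80802835, minus strand) encodes GluA2, the subunit that makes AMPA receptors nearly impermeable to calcium once its RNA is edited. Female vehicle libraries held 7.71, 7.74, 7.77 and 7.41 log2 CPM, and female DHT libraries 8.37, 8.28 and 7.95. Male vehicle libraries held 7.52, 7.24, 7.44 and 7.28, and male DHT libraries 7.79, 7.96 and 7.75. Female vehicle 4 was the lowest of the female libraries, and the groups were separate in both sexes. Gria2 rose by 0.55 on the log2 scale in females (SE 0.12, limma adjusted p = 0.00500) and by 0.46 in males (SE 0.12, limma adjusted p = 0.0170). The call in males was lost without male DHT 3, where the limma adjusted p was 0.0784, and without male vehicle 4, where it was 0.0515.

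Gria3 (chrX:41400854-41678601, plus strand), an AMPA subunit on the X chromosome, stood at 6.31, 6.48, 6.60 and 6.23 log2 CPM in female vehicle and at 7.24, 7.16 and 6.79 in female DHT. The male values were 6.19, 6.11, 6.28 and 6.07 with vehicle and 6.44, 6.77 and 6.60 with DHT. Both sexes showed separate groups. The log2 fold changes were 0.66 (SE 0.12, limma adjusted p = 0.00478) in females and 0.44 (SE 0.12, limma adjusted p = 0.0226) in males. Without male DHT 3 the limma adjusted p in males was 0.104, and without male vehicle 4 it was 0.0655.

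Gria1 (chr11:57011387-57330244, plus strand) encodes GluA1, known for its phosphorylation and insertion at synapses in plasticity and, in the dorsal horn, in pain. In female vehicle it was at 6.91, 7.05, 6.99 and 6.75 log2 CPM, and in female DHT at 7.73, 7.61 and 7.25. The rise in females was 0.60 on the log2 scale (SE 0.11, limma adjusted p = 0.00478). In male vehicle it was at 6.82, 6.79, 6.85 and 6.72, and in male DHT at 6.95, 7.18 and 7.09. The male groups did not overlap, yet the log2 difference of 0.28 (SE 0.11) did not pass the test (limma adjusted p = 0.0732).

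Grin1 (chr2:25291181-25319187, minus strand), the obligatory NMDA subunit, had the highest level of the 10 genes per kilobase in 3 of the 4 groups. Female vehicle libraries were at 7.77, 7.98, 7.85 and 7.56 log2 CPM and female DHT libraries at 8.35, 8.33 and 8.04. Male vehicle libraries were at 7.89, 7.96, 7.97 and 7.79 and male DHT libraries at 7.98, 7.94 and 8.10. The female groups were separate and the male groups overlapped. The log2 fold change was 0.45 in females (SE 0.10, limma adjusted p = 0.00544) and 0.10 in males (SE 0.10, limma adjusted p = 0.495). An antisense gene, Grin1os, covers 13.5% of the exon bases of Grin1, and although the library kit keeps strand, whether the counting used it is not given in the sources used here.

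Grin2a and Grin2b encode the GluN2 subunits that dominate in the forebrain, with faster and slower channel kinetics respectively, and Grin2b is the more prominent early in development. Grin2a (chr16:9567898-9995560, minus strand) was at 5.39, 5.68, 5.73 and 5.07 log2 CPM in female vehicle and at 6.43, 6.44 and 6.06 in female DHT. In males it was at 5.10, 5.24, 5.27 and 5.07 with vehicle and at 5.66, 5.91 and 5.68 with DHT. Grin2a was the 1 NMDA subunit that passed the test in both sexes, with separate groups in each. Its log2 fold change was 0.84 in females (SE 0.15, limma adjusted p = 0.00478) and 0.58 in males (SE 0.15, limma adjusted p = 0.0182), and the latter was lost without male DHT 3 (limma adjusted p = 0.0826) or male vehicle 4 (limma adjusted p = 0.0535).

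Grin2b (chr6:135713233-136173511, minus strand) was at 5.54, 5.95, 5.92 and 5.29 log2 CPM in female vehicle and at 6.54, 6.55 and 6.09 in female DHT. Its male values were 5.46, 5.70, 5.68 and 5.04 with vehicle and 5.97, 6.12 and 5.93 with DHT. Male vehicle 4 lay well below the other male libraries, and no DHT value fell within the vehicle range of its sex. The log2 difference was 0.72 in females (SE 0.19, limma adjusted p = 0.00938). In males it was 0.54 (SE 0.19) and did not pass the test (limma adjusted p = 0.0563).

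Grin2c (chr11:115249169-115267243, minus strand), best known from cerebellar granule cells and also found in astrocytes, was the member with the lowest log2 CPM and the widest spread. Female vehicle libraries held 3.61, 3.67, 3.25 and 2.44 log2 CPM and female DHT libraries 4.05, 4.46 and 3.94. Male vehicle libraries held 3.81, 3.90, 4.28 and 3.77, and male DHT libraries 3.48, 3.32 and 4.31. In males the DHT group held both the lowest values and the highest value. The rise in females was 0.90 on the log2 scale (SE 0.30, limma adjusted p = 0.0261), whereas the difference in males was −0.24 (SE 0.30, limma adjusted p = 0.593). The female call was lost without female vehicle 4, female DHT 1 or female DHT 2, where the limma adjusted p was 0.0613, 0.0593 and 0.114.

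Grin2d (chr7:45831883-45878378, minus strand), a subunit that gives slowly closing channels and is found in spinal cord, changed the least. It was at 5.01, 5.27, 5.17 and 4.82 log2 CPM in female vehicle and at 5.44, 5.55 and 5.21 in female DHT. In male vehicle it was at 5.32, 5.28, 5.14 and 5.10, and in male DHT at 5.15, 5.21 and 5.51. Groups overlapped in both sexes. The log2 fold change was 0.33 in females (SE 0.12, limma adjusted p = 0.0409) and 0.08 in males (SE 0.12, limma adjusted p = 0.671). Without any 1 of female vehicle 1, female vehicle 4, female DHT 1 and female DHT 2, the limma adjusted p in females was between 0.0852 and 0.169, and without male vehicle 2 or 3 it was 0.0506 and 0.0501. The antisense gene Gm45441 covers 9.66% of its exon bases.

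Grin3a (chr4:49661611-49845744, minus strand) encodes GluN3A, a glycine-binding subunit that lowers the calcium permeability of NMDA receptors and has been found in oligodendrocytes. It was at 5.35, 5.64, 5.79 and 5.46 log2 CPM in female vehicle and at 6.49, 6.29 and 5.87 in female DHT. Male libraries were at 5.41, 5.48, 5.54 and 5.26 with vehicle and at 5.60, 5.92 and 5.75 with DHT. The groups were separate in both sexes. The log2 difference was 0.66 in females (SE 0.14, limma adjusted p = 0.00523) and 0.34 in males (SE 0.14, limma adjusted p = 0.106). Grin3b, the related GluN3 gene outside the 10, rose by 1.02 on the log2 scale in females (SE 0.31, limma adjusted p = 0.0188) and differed by 0.07 in males (SE 0.31, limma adjusted p = 0.887), from a low mean of 1.83 log2 CPM.

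Whether the response differed between the sexes was asked by the interaction of sex and DHT. The difference between the log2 fold changes, female minus male, was positive for all 10 subunits, with a median of 0.26. Its median was −0.02 over all genes and 0.13 over the 12 neuron markers. Of the 10 subunits, 0 passed the test, where 1.86% of all genes did. At an unadjusted p under 0.05 there were 3 in limma: Grin2c (1.14, SE 0.42, limma adjusted p = 0.119), Grin1 (0.35, SE 0.14, limma adjusted p = 0.139) and Gria1 (0.32, SE 0.15, limma adjusted p = 0.178). A fit with voom also called 0. Female DHT 3 lay below the other female DHT libraries for all members, and without it 3 interactions passed: Gria1 at 0.46 (limma adjusted p = 0.0141), Grin1 at 0.45 (limma adjusted p = 0.0280) and Grin3a at 0.50 (limma adjusted p = 0.0489). With vehicle alone, none of the 10 subunits differed between female and male libraries by limma at the threshold, against 7.15% of all genes that were higher and 5.53% that were lower in females. The nearest was Gria4, which was 0.38 higher on the log2 scale in female vehicle (SE 0.12, limma adjusted p = 0.0518) and which voom called, and Grin2c had the largest difference, −0.70 (SE 0.28, limma adjusted p = 0.112). At an unadjusted p under 0.05 in limma there were 4 members: Gria2, Gria3 and Gria4, with higher values in female vehicle, and Grin2c, with lower values. The share of all genes at that unadjusted threshold was not counted, here or for the interaction, so neither count is a result about the subunits.

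The subunits were then set beside other genes of the glutamate synapse and beside neuron markers. Over all genes, 19.8% rose in females and 12.1% in males, the shares to set beside the rises counted in each list. In females, RNA of 11 of 12 neuron markers rose and none fell (median log2 fold change 0.47), and in males 4 of 12 rose and none fell (median 0.26). Elavl4, a neuronal RNA-binding protein, rose by 0.62 in females (SE 0.13, limma adjusted p = 0.00478) and by 0.76 in males (SE 0.13, limma adjusted p = 0.00514), and Snap25, of the vesicle fusion machinery, rose by 0.66 and 0.61 (SE 0.13 in both sexes, limma adjusted p = 0.00478 and 0.00978). Eno2, neuronal enolase, rose by 0.50 in females (SE 0.10, limma adjusted p = 0.00478) and differed by 0.24 in males (SE 0.10, limma adjusted p = 0.105). In the same libraries, 8 of 8 microglia and macrophage markers fell in females, where 27.3% of all genes fell, and 2 of 8 fell in males, where 10.7% did. Their median log2 fold changes were −1.84 and −1.06, and Cx3cr1, the fractalkine receptor, changed by −1.23 and −1.14 (limma adjusted p = 0.00550 and 0.0145). Cd68 and Aif1 changed by −2.92 and −2.15 in females and differed by −1.76 and −0.98 in males (limma adjusted p = 0.0712 and 0.168 in males). All 7 measured T cell markers fell in females (median −3.43) and 0 of 7 was called in males by limma or by voom or had an unadjusted p under 0.05 (median −0.92), with sums of 49.85 to 93.9 CPM in female vehicle, 1.64 to 33.7 in female DHT, 61.7 to 106 in male vehicle and 29.7 to 72.7 in male DHT. The part of these shifts in the rise of the subunits was not tested.

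Other cells that can carry these receptors moved less evenly. Of the 8 mature oligodendrocyte markers, 4 rose in females and 2 in males, with none falling and medians of 0.39 and 0.23. Their summed level was 15199 to 19023 CPM in female vehicle, 20523 to 24833 in female DHT, 16920 to 19612 in male vehicle and 16509 to 22549 in male DHT. Ermn rose in both sexes (0.37 and 0.96), as did Opalin (0.72 and 1.17), both products of myelinating cells, and Mog rose by 0.40 in females. Of the 8 oligodendrocyte precursor markers, 2 rose in females, Bcan (0.97) and C1ql1 (0.59), and 1 in males, Lhfpl3 (0.33). These counts are near the shares of all genes that rose, 19.8% and 12.1%. None was called as falling, but Gpr17 and Pdgfra differed by −0.16 and −0.14 in females. In males Gpr17, Bcan and Cspg4 differed by −1.47, −0.40 and −0.22 (limma adjusted p = 0.0841, 0.274 and 0.341). The sums were 455.1 to 603.1 CPM in female vehicle, 553.6 to 705.9 in female DHT, 586.0 to 659.7 in male vehicle and 430.0 to 567.3 in male DHT. Astrocyte markers split, with 3 of 8 rising and 2 falling in females and 1 falling in males. Fgfr3, a growth factor receptor, rose by 0.69 in females and changed by −0.48 in males (interaction limma adjusted p = 0.0262). Slc4a4, a bicarbonate transporter, rose by 0.53 in females and S100b by 0.43. Aldh1l1 and Aqp4 fell in females, with changes of −0.50 and −0.31 (limma adjusted p = 0.0381 and 0.0460). Gja1 differed by 0.24 in females and −0.69 in males (limma adjusted p = 0.424 and 0.0552). The astrocyte sums were 6494 to 8821 CPM in female vehicle, 5318 to 7869 in female DHT, 8138 to 9822 in male vehicle and 7078 to 8080 in male DHT. No marker of these lists was at 0 in any library, and their part in the subunit values was not tested.

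When each library was centred on the mean of its 12 neuron markers, part of the picture changed. This scaling moves the median over all genes to −0.46 in females and −0.32 in males. Before it, log2 fold changes of the 12 markers ran from −0.004 (Tubb3) to 0.66 (Syt1) in females. In males they ran from −0.08 (Uchl1) to 0.76 (Elavl4). The deposited male changes of Gria4 (0.62), Grin2a (0.58) and Grin1 (0.10) lay within that range. Those of Gria4 (0.74) and Grin2a (0.84) in females lay above the female range. Relative to neuron markers, 4 of 10 subunits rose in females (Gria3, Gria4, Grin2a and Grin3a), where 2.12% of all genes did. In males Gria4 and Grin2a rose, where 1.78% of genes did, and Grin1 fell, where 35.9% of genes fell. Gria4 relative to neuron markers was at −1.39, −1.47, −1.53 and −1.63 on the log2 scale in female vehicle and at −1.14, −1.14 and −1.33 in female DHT. In males it was at −1.78, −1.84, −1.74 and −1.75 with vehicle and at −1.53, −1.37 and −1.54 with DHT. The groups remained separate, and the log2 difference was 0.30 in females (SE 0.07, limma adjusted p = 0.00433) and 0.30 in males (SE 0.07, limma adjusted p = 0.0114). Grin2a relative to neuron markers differed by 0.40 in females (SE 0.09, limma adjusted p = 0.00307) and by 0.26 in males (SE 0.09, limma adjusted p = 0.0458). Grin1 went the other way in males, by −0.22 (SE 0.07, limma adjusted p = 0.0311), from −0.43, −0.35, −0.40 and −0.43 with vehicle to −0.60, −0.72 and −0.55 with DHT, and it differed by 0.02 in females (SE 0.07, limma adjusted p = 0.866). Grin2d differed by −0.10 in females (SE 0.10, limma adjusted p = 0.372), the opposite sign of its value as deposited. For Gria2 the difference was 0.11 in females (limma adjusted p = 0.270) and 0.14 in males (limma adjusted p = 0.181).

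**Figure D2:**
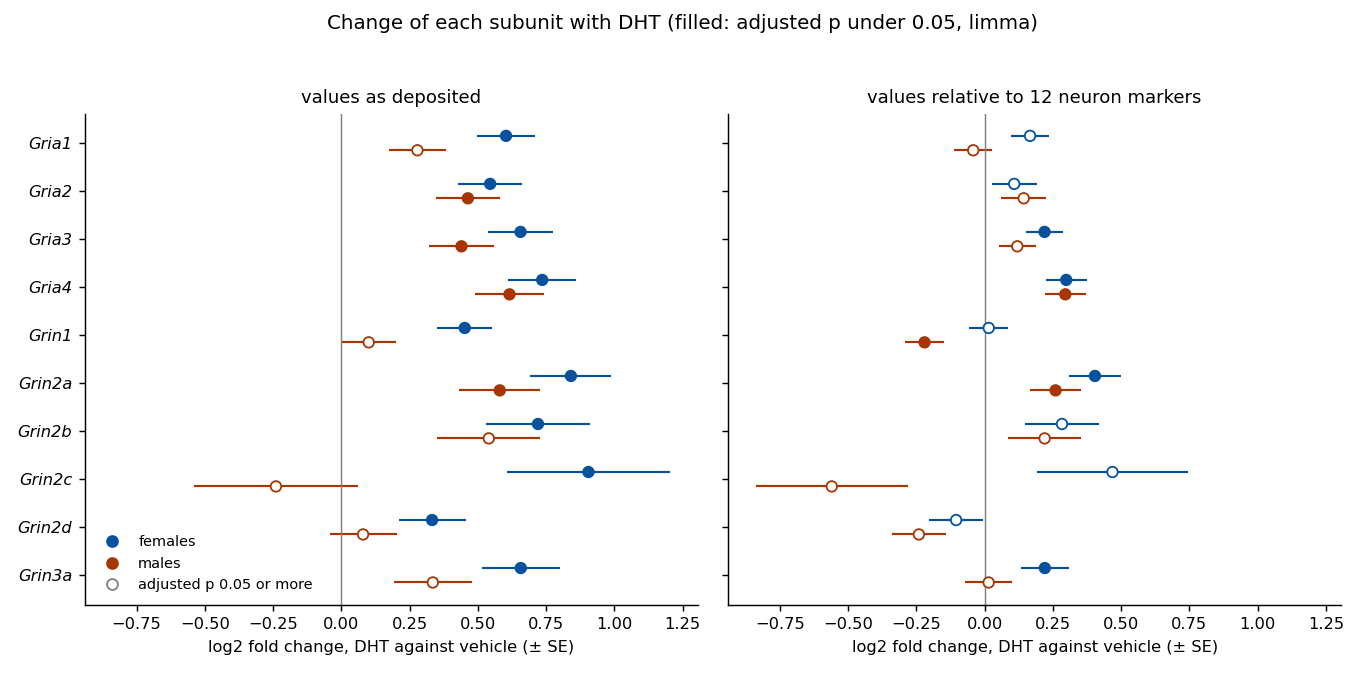
Log2 fold change of each subunit with DHT (x axis, ± SE of the limma fit) in females and males, for the values as deposited (left) and for values relative to 12 neuron markers (right), with filled points where the adjusted p was under 0.05. On the left all 10 female points are filled and lie between 0.33 and 0.90, and on the right Gria4 and Grin2a are filled and above 0 in both sexes while Grin1 is filled and below 0 in males.

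Among the proteins that accompany AMPA receptors, 6 of 12 auxiliary subunit genes rose in females and 3 of 12 in males, and none fell. Cacng2, which encodes stargazin, rose by 0.50 in females (SE 0.10, limma adjusted p = 0.00487) and by 0.32 in males (SE 0.10, limma adjusted p = 0.0435). Cacng7, for another protein of the same family, rose by 0.40 in females (SE 0.10, limma adjusted p = 0.00803), and Cacng3 rose by 0.56 in females (SE 0.14, limma adjusted p = 0.00804). In males these genes differed by 0.16 and 0.38 (limma adjusted p = 0.267 and 0.0705). The 3 genes that rose in males were Cacng2, Cacng5 and Shisa6. Of 12 genes for receptor biogenesis and trafficking, 7 rose in females, and 6 rose and 1, Cpt1c, fell in males. Frrs1l, which takes part in AMPA receptor assembly in the endoplasmic reticulum, rose by 0.78 in females (SE 0.15, limma adjusted p = 0.00478) and by 0.67 in males (SE 0.15, limma adjusted p = 0.0114). Nsf, an ATPase that binds GluA2, rose by 0.59 and 0.37 (SE 0.12, limma adjusted p = 0.00484 and 0.0498), and Nptx1, a secreted protein that clusters AMPA receptors, by 0.48 and 0.36 (SE 0.11, limma adjusted p = 0.00647 and 0.040).

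Related receptors and the postsynaptic density gave like counts. Of 7 kainate and delta receptor genes, 5 rose in females and 3 in males. Grid1 rose by 0.56 in females (SE 0.10, limma adjusted p = 0.00478), while Grik1, a kainate subunit, rose by 0.44 in females and 0.65 in males (SE 0.12, limma adjusted p = 0.0135 and 0.00657). Grik2 rose by 0.63 in males (SE 0.14, limma adjusted p = 0.0101) and differed by 0.33 in females (limma adjusted p = 0.0682). Of the scaffolds, 10 of 12 rose in females and 4 of 12 did in males (medians 0.36 and 0.20). The scaffold Dlgap1 rose by 0.37 and 0.28 (SE 0.08, limma adjusted p = 0.00532 and 0.0297), Dlg1, for SAP97, by 0.19 and 0.34 (SE 0.07, limma adjusted p = 0.0327 and 0.00731), and Dlg3, for SAP102, by 0.32 in females (limma adjusted p = 0.00490) against 0.20 in males (limma adjusted p = 0.0523). In the list of 9 kinases and phosphatase subunits, the females had 6 rises and 1 fall, and the males had 3 rises and 1 fall. The gene that fell in both was Src, a tyrosine kinase that phosphorylates NMDA receptors, which fell by 0.42 on the log2 scale in females and fell by 0.37 in males. Ppp3ca and Ppp3cb, catalytic subunits of calcineurin, rose by 0.46 and 0.39 in females and by 0.49 and 0.49 in males, and Camk2g by 0.49 in females.

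Glutamate supply and uptake followed the same direction less evenly. In females 7 of 10 genes rose and none fell, and in males 3 rose and 1 fell, with medians of 0.48 and 0.13. Slc17a6, the vesicular glutamate transporter of most spinal excitatory neurons, rose by 0.65 in females (SE 0.14, limma adjusted p = 0.00550) and by 0.60 in males (SE 0.14, limma adjusted p = 0.0141). Slc1a2, the main astrocyte glutamate transporter, rose by 0.55 in females (SE 0.14, limma adjusted p = 0.00790) and differed by −0.03 in males (limma adjusted p = 0.889). Slc6a9, a glycine transporter of glia, rose by 0.57 in females (SE 0.14, limma adjusted p = 0.00670) and differed by 0.15 in males (limma adjusted p = 0.458). The differences between the sexes for Slc1a2 and Slc6a9 did not pass the interaction test (limma adjusted p = 0.0988 and 0.177). Of the 3 genes of the editing enzyme family, Adarb1, which edits the GluA2 transcript, rose by 0.56 in females (SE 0.14, limma adjusted p = 0.00733). Adarb2 rose by 0.44 in females (SE 0.12, limma adjusted p = 0.0108), while Adar differed by 0.07. Editing itself was not measured. In males 0 of 3 passed by limma or by voom and 1 had an unadjusted p under 0.05, with differences of 0.29 for Adarb1, 0.34 for Adarb2 and 0.12 for Adar.

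**Figure D3:**
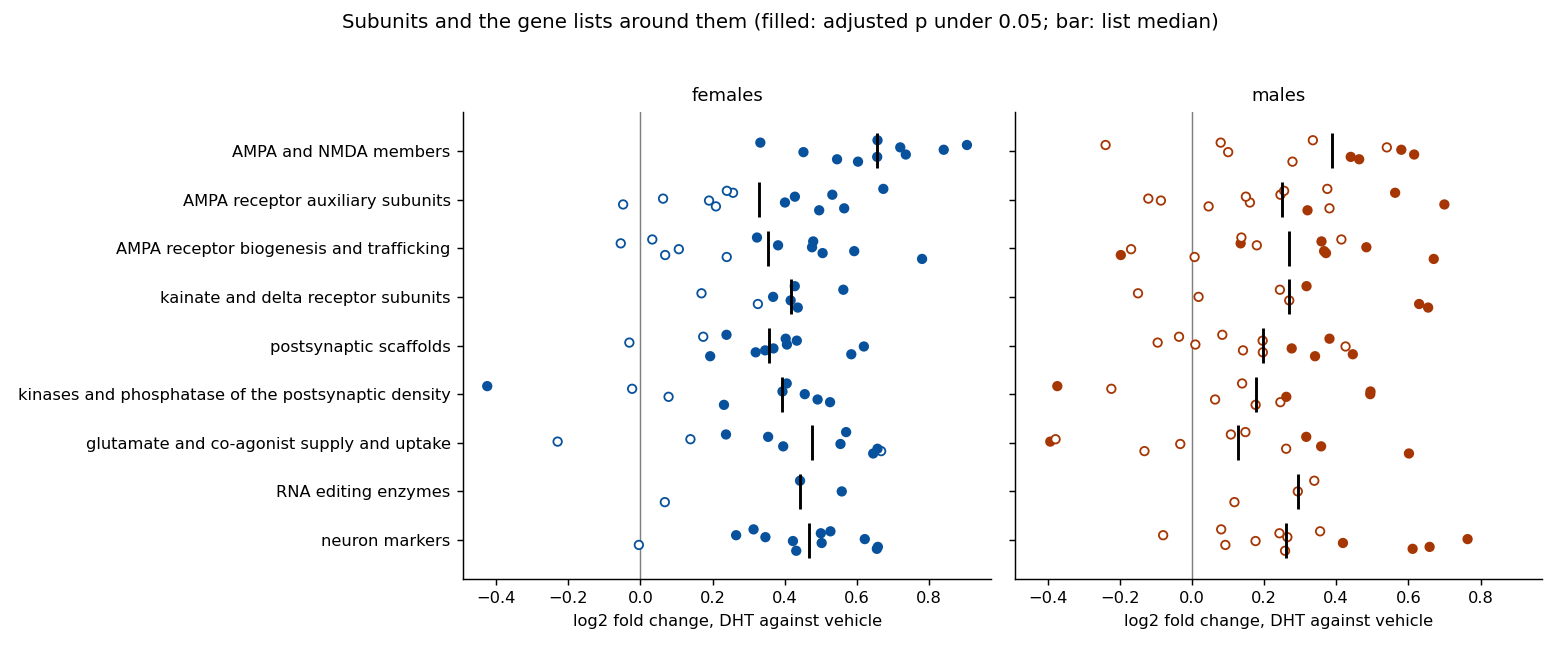
Log2 fold change with DHT (x axis) of the 10 subunits and of the genes of 8 lists (rows), in females (left) and males (right), with 1 point per gene, filled where the limma adjusted p was under 0.05, and a bar at the list median. The subunit median is 0.66 in females and 0.39 in males, and the neuron marker median is 0.47 and 0.26.

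Levels of different genes were compared per kilobase of exon (CPM per kilobase). The divisor was the merged length of all annotated exons, 15548 bases for Gria2, 6043 for Gria1 and 6305 for Gria4. The length of the transcripts present in the cord was not measured. Before division, Gria2 had the highest CPM of the AMPA genes in every library. In female vehicle 1 it was at 208.9 CPM, Gria1 at 120.3 and Gria4 at 121.5. The order of genes and their shares thus depend on the divisor. In female vehicle, Grin1 was at 22.9 ± 2.72 (SD, n = 4), Gria1 at 20.2 ± 1.78 and Gria4 at 19.2 ± 2.54, and the ranges of neighbours in this order overlapped. Gria2 followed at 13.0 ± 1.43 and Gria3 at 8.64 ± 1.02, each apart from its neighbours. The remaining NMDA subunits were lower: Grin2d at 5.07 ± 0.69 and Grin3a at 3.87 ± 0.52 overlapped, as did Grin2a at 2.51 ± 0.50, Grin2b at 2.09 ± 0.44 and Grin2c at 1.97 ± 0.67. In female DHT the first 3 were Gria4 at 32.0 ± 5.56 (SD, n = 3), Grin1 at 31.3 ± 3.55 and Gria1 at 30.9 ± 5.14, again with overlapping ranges. Then came Gria2 at 19.1 ± 2.80, Gria3 at 13.7 ± 2.20, Grin2d at 6.37 ± 0.75, Grin3a at 6.15 ± 1.30, Grin2a at 4.45 ± 0.64, Grin2c at 3.55 ± 0.71 and Grin2b at 3.42 ± 0.58, and neighbours from Grin2d downward overlapped.

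Male vehicle libraries held the steadiest order. Grin1 led at 24.7 ± 1.42 (SD, n = 4), followed by Gria1 at 18.4 ± 0.69, Gria4 at 14.7 ± 0.79, Gria2 at 10.7 ± 0.996, Gria3 at 7.27 ± 0.47, Grin2d at 5.56 ± 0.41 and Grin3a at 3.50 ± 0.29, with no overlap between neighbours. Grin2c at 3.07 ± 0.54 overlapped with Grin3a, and Grin2a at 2.01 ± 0.14 with Grin2b at 1.81 ± 0.35. In male DHT, Grin1 was at 26.5 ± 1.57 (SD, n = 3), Gria4 at 22.5 ± 2.003 and Gria1 at 22.3 ± 1.81, so that Gria4, which was below Gria1 in every male vehicle library, now overlapped with it. Below them were Gria2 at 14.7 ± 1.18, Gria3 at 9.89 ± 1.11, Grin2d at 5.91 ± 0.82 and Grin3a at 4.43 ± 0.49, each apart from the next, and then Grin2a at 3.01 ± 0.30, Grin2c at 2.70 ± 1.07 and Grin2b at 2.59 ± 0.18, which overlapped.

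**Figure D4:**
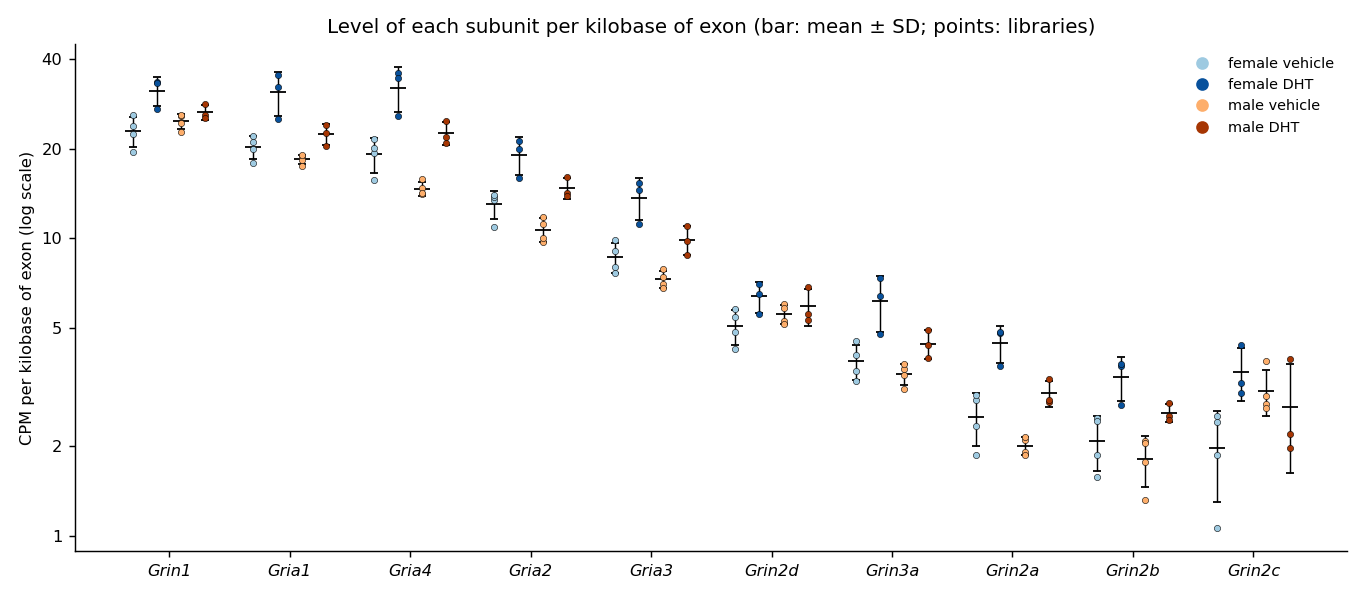
CPM per kilobase of exon (y axis, log scale) of each subunit (x axis, in the order of the female vehicle means) in the 4 groups, with 1 point per library and a bar at the mean ± SD. Grin1, Gria1 and Gria4 lie highest at means of 14.7 to 32.0, and Grin2a, Grin2b and Grin2c lowest at means of 1.81 to 4.45.

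The 4 measures of subunit make-up taken from these levels were tested by an exact permutation test of the absolute difference of means, two-sided, over the 35 ways to place 3 DHT labels on 7 libraries, with a smallest possible p of 0.0286. None of the 8 tests passed after adjustment, and 1 test at this smallest p could not pass alone. The sum of the AMPA subunits over the sum of the NMDA subunits, as a log2 ratio, was 0.38, 0.21, 0.32 and 0.39 in male vehicle and 0.59, 0.79 and 0.48 in male DHT. In females this log2 ratio was 0.70, 0.57, 0.70 and 0.71 with vehicle and 0.86, 0.77 and 0.73 with DHT. All DHT libraries lay above all vehicle libraries in both sexes, and the difference was 0.29 in males and 0.11 in females (exact permutation p = 0.0286 and adjusted p = 0.0762 in each).

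After division by exon length, the share of Gria2 in the AMPA sum was 22.2%, 21.2%, 21.0% and 21.0% in female vehicle. It was 19.7%, 19.8% and 20.4% in female DHT. Here the DHT libraries were all lower, by 1.38 percentage points on average (19.97% against 21.3%), with an exact permutation p of 0.0286 and an adjusted p of 0.0762. In males the share was 20.9% with vehicle and 21.2% with DHT, and the groups overlapped (exact permutation p = 0.714, adjusted p = 0.816). The share of Grin2b in the sum of the 4 GluN2 genes was 17.9% with vehicle and 19.2% with DHT in females (exact permutation p = 0.257, adjusted p = 0.343), and 14.4% and 18.5% in males (exact permutation p = 0.114, adjusted p = 0.183). The log2 ratio of Grin2a to Grin2b was 0.27 with vehicle and 0.39 with DHT in females (exact permutation p = 0.0571, adjusted p = 0.114), and 0.17 and 0.21 in males (exact permutation p = 0.857, adjusted p = 0.857). As a description without a test, Gria4 made up 28.8 ± 0.60% (SD, n = 4) of AMPA subunit RNA in male vehicle and 32.4 ± 0.20% (n = 3) in male DHT, and 31.3 ± 1.04% and 33.4 ± 0.58% in the female groups. Gria1 went from 36.1 ± 0.85% to 32.2 ± 0.73% in males and from 33.2 ± 1.18% to 32.3 ± 0.41% in females, and Grin2a from 4.94 ± 0.15% to 6.70 ± 0.90% of NMDA subunit RNA in males and from 6.48 ± 0.56% to 8.05 ± 0.12% in females.

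**Figure D5:**
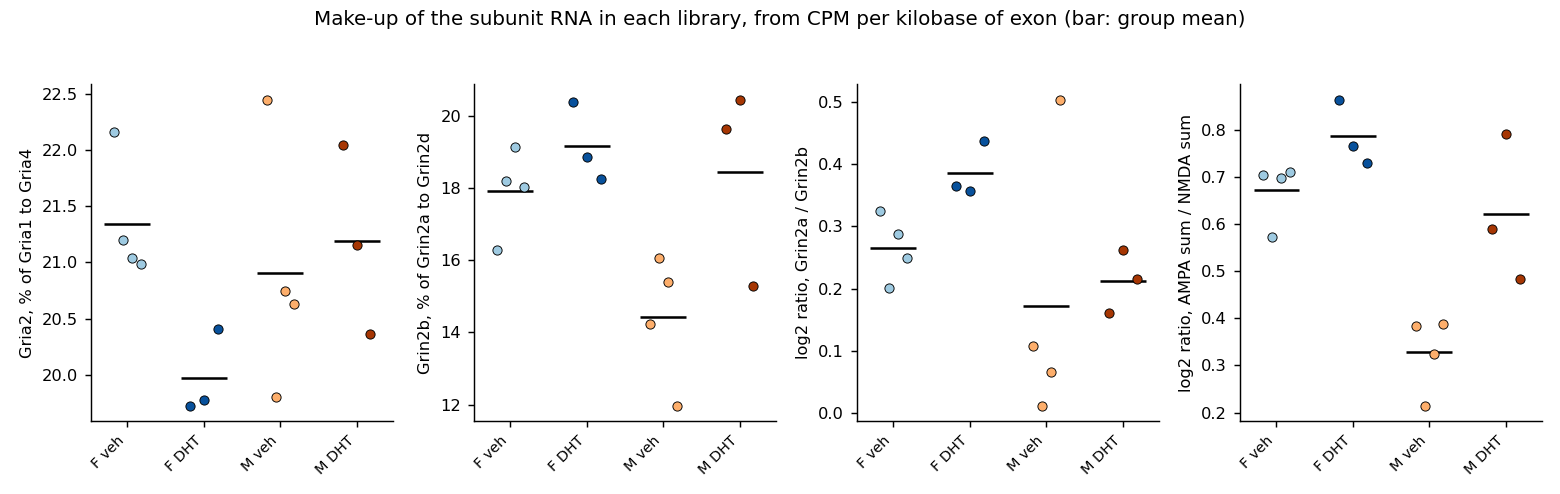
The 4 measures of subunit make-up (y axes: percent or log2 ratio, from CPM per kilobase) in the 14 libraries by group (x axis), with 1 point per library and a bar at the group mean. The AMPA to NMDA ratio of DHT libraries lies above that of all vehicle libraries of the same sex, and the Gria2 share lies below it in females, at 19.97% against 21.3%.

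Across the 14 libraries, with each sex centred on its own mean, Gria3 and Grin3a had the most similar profiles among the 45 pairs of subunits (root mean square difference 0.0706 on the log2 scale), followed by Gria1 with Gria3 (0.0794) and Gria3 with Gria4 (0.0837). Grin2c was the least similar to the rest, with differences of 0.348 to 0.445. Grin1 was closest to Grin2d (0.0858), and these were the members with the smallest fold changes in females. Among 12983 other genes with a mean of at least 2 log2 CPM, the profile of Gria2 was nearest to those of Ankrd45 (0.0474), Zfp846 (0.0558), Mdga2 (0.0600), Gprasp1 (0.0604) and Gabrg3 (0.0622), where the median over genes was 0.318. The profile of Grin1 was nearest to those of Klc2 (0.0320), Cep170b (0.0326), Adgrl1 (0.0353), 6430548M08Rik (0.0358) and Kcnab2 (0.0434), where the median was 0.251. These distances describe profiles over libraries that share the same groups, normalization and depth.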

How the data were processed

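RNA of spinal cords was sequenced by the authors in 14 libraries. Per the study's methods and the submitters' processing notes, reads were checked with FastQC, trimmed with fastp, mapped and counted with DRAGEN on mm10 with a GENCODE annotation, checked with Picard, normalized on housekeeping genes (RUVSeq) to join the sexes, and scaled with edgeR. The authors deposited log2 CPM values of 16703 genes. They also deposited fold changes, test statistics and p-values of 6 comparisons, which were not used. The linear values resolved into whole numbers in 100% of cases (tolerance 0.05). These already hold the normalization, so they served for depth and a voom alternative alone. The missing direction came from a singular value decomposition of 10958 genes, each with 200 reads or more per library.

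The members and lists were chosen with earlier results of these data known. limma 3.58.1 in R 4.3.3 (eBayes, trend on) took the deposited log2 values of all genes into 1 model of the 4 groups, with no further pseudocount or filter, and p-values were adjusted by Benjamini and Hochberg over all genes. The fit was tested on simulated data. Subunit make-up used linear CPM per kilobase of merged GENCODE M21 exons (GRCm38, the build of mm10), and exact permutation tests with adjustment over 8 tests. These tests were also run on CPM not divided by exon length. All members are named, and the 5 genes nearest to Gria2 and to Grin1. The 3 genes of smallest p are named for each list except the T cell markers and the housekeeping genes. Other genes named with a count of 5 or fewer were chosen after their values were seen. Column numbers match no label, so p-values measure the spread between libraries, and whether each is 1 animal is not given in the labels. Intervals were not taken from counts. Alternatives were quantile normalization, centring on 27 housekeeping genes or 12 neuron markers, a minimum mean log2 CPM of 1, pseudocounts of 0.5 and 1, each sex alone, array weights, no trend, voom, the missing direction as a covariate, a threshold of 0.01, and leaving out libraries. Python 3.11.15, pandas 2.3.3 and matplotlib 3.10.9 were used for tables and figures.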

Additional observations from a re-analysis of the deposited data

Results flagged for a closer look

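Within groups of 4 libraries, 2 of 28 sets of values had 1 library far from the rest (gap over range above Dixon's critical value), where chance gives about 1 in 20. Gria2 in female vehicle 4 was at 7.41 log2 CPM, below 7.71 to 7.77 in the other female vehicle libraries (gap over range 0.838). The log2 ratio of AMPA to NMDA subunit RNA in female vehicle 2 was 0.57, below 0.70 to 0.71 in the other 3 (gap over range 0.902).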

How the results depend on the processing

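No paired analysis was possible because the sample titles give every library the same replicate number and the numbers in the column names match no label. In females the count of 10 called subunits was 8 to 10 without 1 library and 4 relative to neuron markers, where the log2 difference of Grin2d turned to −0.10. That female count was 8 with each sex alone, 9 with array weights and 8 at an adjusted p under 0.01. With females fitted alone, the limma adjusted p of Gria1 and of Gria2 was 0.0430. In males the count of 4 was 2 after centring on housekeeping genes, 7 with each sex alone, 7 with array weights, 1 with the missing direction as a covariate, 1 without female vehicle 3 and male DHT 3, and 1 at an adjusted p under 0.01. It ranged from 1 (without male vehicle 4 or male DHT 3) to 7 (without female DHT 3) when 1 library was left out, and Grin1 turned to −0.22 relative to neuron markers. The interaction count of 0 was 2 with array weights, and 0 to 3 without 1 library. Between vehicle groups the count of 0 was 1 relative to neuron markers, 1 with a minimum mean log2 CPM of 1, 4 with array weights, 1 with voom, and 0 to 3 without 1 library (3 without female vehicle 4). The composition tests changed no call. Over all genes, the share of rises among the calls in females was 42.0% as deposited, 61.3% with quantile normalization, 78.5% after centring on housekeeping genes and 3.31% relative to neuron markers, and the median log2 fold change was −0.02, 0.13, 0.33 and −0.46. In males that share was 53.2%, 56.5%, 51.8% and 4.72%. The cause of these shifts was not tested. Every member lay well above the level of a gene without reads (0.0631 CPM) in each library.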
